A study of Mus musculus with 6 samples.

Results

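C1qa, C1qb and C1qc encode the A, B and C chains of C1q, the recognition molecule that starts the classical pathway of complement. They were read on 6 Affymetrix whole-transcript arrays of primary mouse microglia, the resident macrophages of the brain, 3 arrays of fosB-null cells and 3 of C57BL/6J wild-type cells. The members are the probe sets that the platform annotation gives to exactly 1 of these 3 symbols. Each gene had 1 such probe set, so the 3 genes were all measured, out of 19938 genes with a probe set of their own. The fosB-null cells came from mice homozygous (G/G) for fosBG, a null allele of Fosb carried by backcrossing to C57BL/6J (N20 generation), and the wild-type cells from C57BL/6J mice. All cells were grown from the cerebral cortex of pups 2 days old, collected after 10 days of culture, plated again for 24 h and harvested without a further treatment in the labels, and 100 ng of total RNA was labelled. The allele is carried by every cell of the mouse, the labels do not call the wild-type mice littermates, and they call the replicates biological without saying which mice or cultures a number stands for. Where these were not separate cultures, p-values measure only the spread between these samples, which may be technical.

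In C1q each chain has a collagen-like stalk and a globular head. The heads bind antibody in immune complexes, pentraxins or the surface of dying cells, and the stalks carry the proteases C1r and C1s. C1s cleaves C4 and C2, and the resulting convertase cleaves C3. In the brain microglia are the main source of C1q, and in mice C1q has been tied to the removal of synapses during development and in disease models. FosB, the product of Fosb, joins Jun proteins to form AP-1 transcription factors. The title of the series concerns the receptors for the complement fragment C5a, which lie downstream in the same cascade, so the C1q genes show the first step of that cascade in the same arrays.

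The 3 genes lie next to each other on chromosome 4 in the order C1qb, C1qc, C1qa, with no other measured gene between them. RefSeq's promoter table (GRCm38.p6) matched C1qb and C1qc. The 250 bases before each start are shown because FosB acts through AP-1 sites, and because the pair of genes can be read against the motifs of macrophage factors. The C1qb window is chr4:136886201-136886450 and the C1qc window chr4:136892915-136893164, both on the minus strand, written 5′ to 3′ with the matched motifs in capitals.
C1qb: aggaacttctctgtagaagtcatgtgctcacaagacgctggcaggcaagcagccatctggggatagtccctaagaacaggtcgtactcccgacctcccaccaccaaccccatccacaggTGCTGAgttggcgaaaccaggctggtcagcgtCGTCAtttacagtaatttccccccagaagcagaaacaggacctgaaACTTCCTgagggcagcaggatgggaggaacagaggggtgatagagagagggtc
C1qc: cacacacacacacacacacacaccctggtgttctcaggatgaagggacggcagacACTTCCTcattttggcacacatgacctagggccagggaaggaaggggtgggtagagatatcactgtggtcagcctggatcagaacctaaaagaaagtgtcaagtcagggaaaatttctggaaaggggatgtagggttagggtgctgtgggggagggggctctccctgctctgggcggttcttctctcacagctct
The motifs were searched on both strands and were chosen with the sequences in view. The AP-1 motif TGANTCA, with N for any base, had 0 matches in either window, and 6.75% of 32851 mouse promoter windows of the same length held at least 1. The motif AGGAAGT, a core bound by PU.1 and other ETS factors, had 1 match in each window, starting 53 bases before the C1qb start and 195 bases before the C1qc start, and 7.69% of windows held it. TGCTGA, the core of the site bound by MAF factors, had 1 match in C1qb and 0 in C1qc, against 16.1% of windows. TGACG, the core of the cyclic AMP response element, also had 1 match in C1qb and 0 in C1qc, against 17.8% of windows. No matches overlapped each other in these windows. A match is a description of the letters and not of binding, and an absent match says nothing of sites elsewhere.

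The targeted gene, Fosb, had a log2 signal of 7.82, 8.05 and 7.83 in fosB-null replicates 1, 2 and 3, against 8.01, 8.14 and 7.92 in the wild-type ones. The groups overlapped, and the difference of -0.12 had a limma adjusted p of 1. The sources used here do not place the Fosb probes on the fosBG allele, so this signal is no test of the genotype labels. Array medians ran from 7.79 to 7.92 in fosB-null and from 7.76 to 7.89 in wild-type arrays. Arrays with the same replicate number held exactly equal values in 45.2% to 51.3% of all probe sets, and any other pair of arrays in at most 3 probe sets. A difference of 0 within a same-numbered pair is therefore not a measurement of equality. Of 15 listed markers of microglia and macrophages 14 were measured. Those with the highest signals were Trem2, Tyrobp, Csf1r and Spi1, each between 13.1 and 13.7 on every array. Cx3cr1, Fcrls, Olfml3 and Itgam had means of 13.02, 12.86, 12.75 and 12.18. The rest were dimmer: Aif1, Tmem119, Sall1, Gpr34, P2ry12 and Siglech had means of 9.59, 9.02, 9.01, 8.83, 8.82 and 7.40. The defining markers of neurons had means of at most 7.58, those of astrocytes of at most 8.27 and those of fibroblasts and mural cells of at most 8.61. Of the 7 measured oligodendrocyte lineage markers 5 had means under 8, while Mbp, a myelin protein gene, had 9.79 and Cspg4 had 9.52. Mbp had 9.74, 9.62 and 9.70 in fosB-null replicates 1, 2 and 3, against 10.06, 9.86 and 9.76 in the wild-type ones, so its groups did not overlap (difference -0.21, limma adjusted p = 1). The log2 of the summed oligodendrocyte signal ran from 11.14 to 11.25 in fosB-null and from 11.21 to 11.41 in wild-type arrays, and that of the fibroblast and mural signal from 10.6 to 10.8 in fosB-null and from 10.5 to 10.6 in wild-type arrays.

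C1qa, the gene of the A chain, had nearly the same signal in both groups. Its log2 signal was 13.07, 13.11 and 12.88 in fosB-null replicates 1, 2 and 3, against 12.99, 13.08 and 12.92 in wild-type replicates 1, 2 and 3. The groups overlapped, with the fosB-null arrays holding both the highest and the lowest of the 6 values. Within pairs 1, 2 and 3 the difference, fosB-null minus wild-type, was 0.078, 0.030 and -0.039. The mean was 13.02 ± 0.12 in fosB-null and 13.00 ± 0.08 in wild-type arrays (SD, n = 3 each). The difference of 0.023 had a standard error of 0.088 and a limma adjusted p of 1, from an unadjusted p of 0.803. It was smaller than the SD within either group. With arrays centred on their medians, under which the median difference over all tested probe sets was -0.024 in place of 0, it was -0.0011. The 95% confidence interval ran from -0.19 to 0.23, or from 0.879-fold to 1.17-fold. In bulk RNA, fewer cells of a type and less RNA per cell cannot be told apart, so these values are per sample.

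C1qb, the gene of the B chain, gave exactly equal deposited values in pairs 1 and 2. Its log2 signal was 13.66, 13.84 and 13.45 in fosB-null replicates 1, 2 and 3, against 13.66, 13.84 and 13.50 in wild-type replicates 1, 2 and 3. Only pair 3 held a difference, of -0.044. The spread between replicate numbers was wider than for C1qa or C1qc, 0.39 from the lowest to the highest fosB-null array and 0.35 among wild-type arrays. The mean was 13.65 ± 0.20 in fosB-null and 13.67 ± 0.17 in wild-type arrays (SD, n = 3 each). The difference was -0.015 with a standard error of 0.13 (limma adjusted p = 1, unadjusted p = 0.914). With median centring it was -0.039. Its interval was the widest of the 3 genes, from -0.32 to 0.30, or from 0.799-fold to 1.23-fold.

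C1qc, the gene of the C chain, had the narrowest spread. Its log2 signal was 13.92, 13.91 and 13.77 in fosB-null replicates 1, 2 and 3, against 13.87, 13.91 and 13.78 in wild-type replicates 1, 2 and 3. The pairs differed by 0.053, 0 and -0.0045, and pair 2 was an exact tie. The mean was 13.87 ± 0.08 in fosB-null and 13.85 ± 0.07 in wild-type arrays (SD, n = 3 each). The difference was 0.016 with a standard error of 0.076 (limma adjusted p = 1, unadjusted p = 0.838), and -0.0078 with median centring. The interval ran from -0.16 to 0.20, or from 0.892-fold to 1.15-fold.

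**Figure D1:**
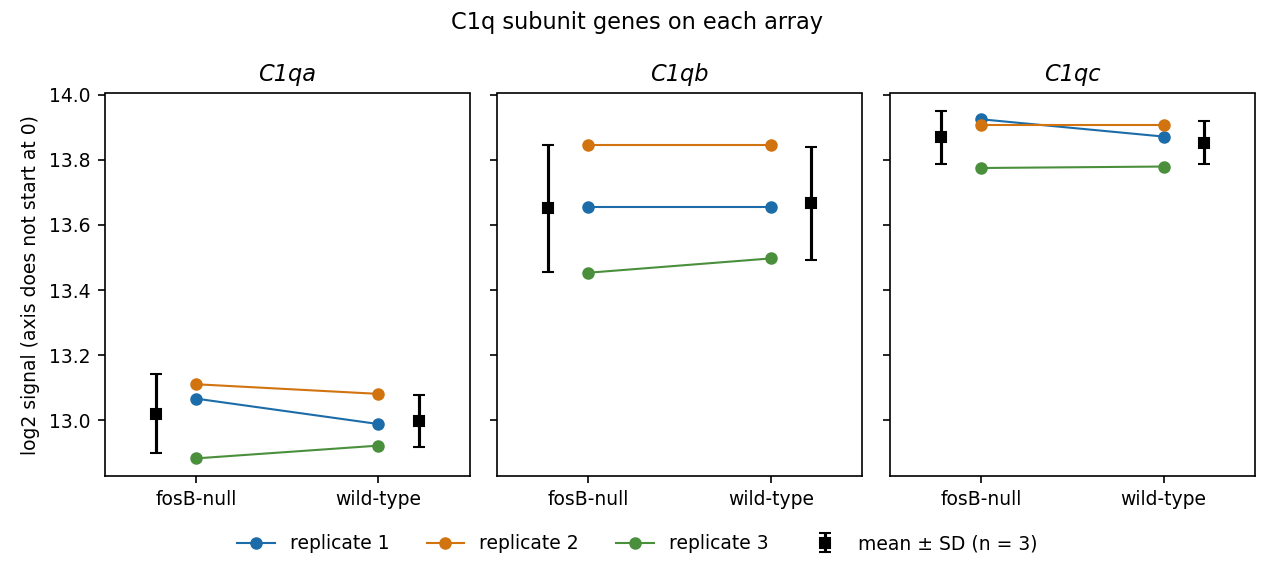
Log2 signal of C1qa, C1qb and C1qc (vertical axis, not starting at 0) on each fosB-null and wild-type array, with a line joining arrays of the same replicate number and black squares for the group mean ± SD (n = 3). The lines are nearly flat, with differences between -0.044 and 0.078, while replicate 3 lies lowest in both groups for each gene; panels of different genes come from different probe sets and are not to be set against each other.

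Across 23410 probe sets with at least 1 gene symbol, limma put 1 past an adjusted p of 0.05, or 0.00427%, and none of the 3 C1q genes. At an unadjusted p under 0.05 there were 169 probe sets, or 0.722%, and again 0 of the 3. Of the tested probe sets 262, or 1.12%, had groups that did not overlap, while each C1q gene had groups that did. As a description, 40.6% of tested probe sets had a larger absolute difference than C1qa, 49.9% a larger one than C1qb and 47.8% a larger one than C1qc. By absolute size the C1q differences thus lay near the middle of all tested probe sets, whose median absolute difference was 0.015. That median includes the 27.8% of probe sets tied in all 3 pairs. Among the 447 tested probe sets with a mean of at least 13.01, 31.3% had a larger one than C1qa, 44.3% than C1qb and 42.1% than C1qc.

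The 1 probe set past the threshold belongs to C5ar2, the second receptor for C5a, which lies at the other end of the cascade. C5ar2 had 8.05, 7.99 and 7.96 in fosB-null replicates 1, 2 and 3, against 9.84, 9.85 and 9.70 in the wild-type ones. Its difference of -1.80 had a limma adjusted p of 0.0016. The limma adjusted p of C5ar2 was 7.5e-06 with a random block for replicate number and 0.539 with a fixed one. C5ar1 differed by -0.96, -0.82 and -0.93 in pairs 1, 2 and 3, and its groups did not overlap. Its mean difference of -0.90 had a limma adjusted p of 1, which was 0.0037 with a random block for replicate number and 0.674 with a fixed one. Both blocked fits take exact ties within pairs as measured zeros, so their p-values depend in part on such ties. The 95% intervals of the C1q genes leave out differences of either size. The cause of the C5ar1 and C5ar2 differences was not tested. Their distance from Fosb was not examined, so sequence carried along with fosBG cannot be told apart from loss of FosB.

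**Figure D2:**
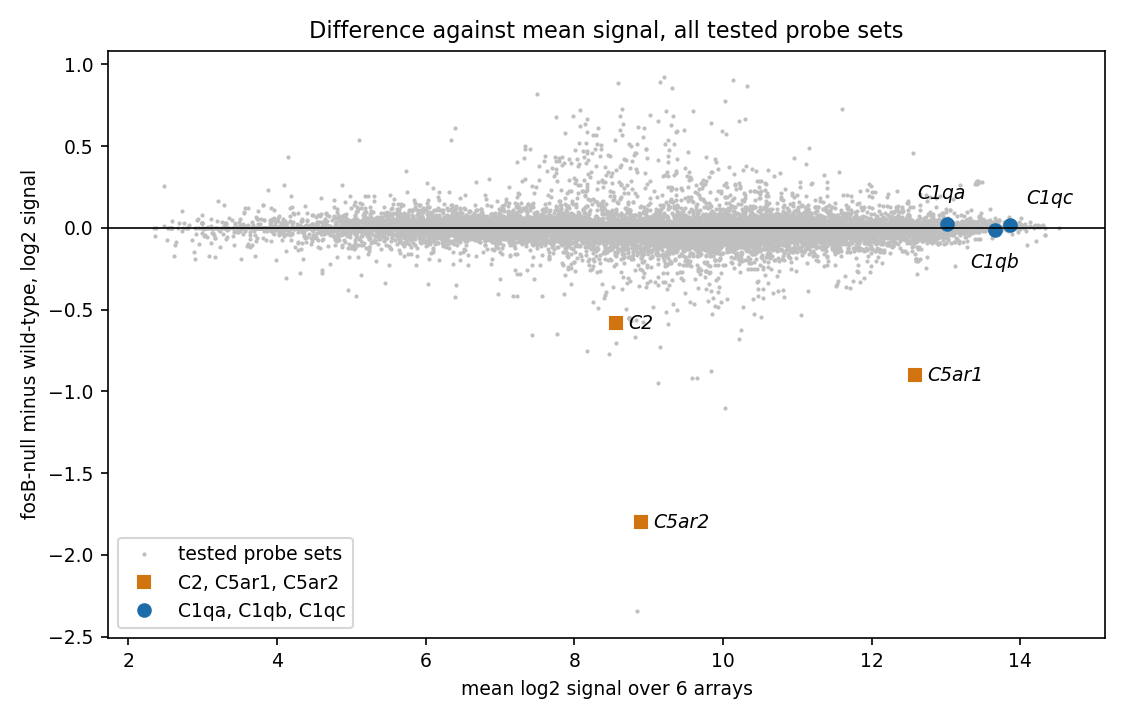
Difference between fosB-null and wild-type arrays (log2 signal, vertical axis) against the mean log2 signal over 6 arrays (horizontal axis) for the 23410 tested probe sets, with the C1q genes as blue circles and C2, C5ar1 and C5ar2 as orange squares. C1qa, C1qb and C1qc lie at the bright end, at means of 13.01, 13.66 and 13.86, and within 0.023 of 0, while C5ar2 lies at -1.80.

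The C1q probe sets were among the brightest of each array. C1qa was above 98.1% to 98.3% of all probe sets of the same array over the 6 arrays, C1qb above 99.2% to 99.7% and C1qc above 99.7% to 99.8%. The fosB-null and wild-type arrays did not part in this measure. For C1qb it was 99.4%, 99.7% and 99.2% in fosB-null replicates 1, 2 and 3, and 99.5%, 99.7% and 99.3% in the wild-type ones. Probe sets bind with unequal strength, so these positions describe the signal range and do not rank the 3 transcripts. The highest value of any probe set was 14.6, and how far signals near the top of the range are compressed was not tested.

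As deposited, the C1q genes differed more between replicate numbers than between the arrays of a pair. The mean of the paired arrays spanned 0.19 over the 3 numbers for C1qa, 0.37 for C1qb and 0.13 for C1qc, whereas the largest difference within a pair was 0.078, 0.044 and 0.053. In each gene the mean of the pair was highest for replicate 2 and lowest for replicate 3. This order was shared by most bright probe sets: of the 447 tested probe sets with a mean of at least 13.01, 84.1% had it, against 34.7% of all tested probe sets. With arrays centred on their medians replicate 3 stayed lowest for each gene and replicate 1 was highest for C1qa and C1qc. With quantile normalization the span was 0.035 for C1qa, 0.23 for C1qb and 0.046 for C1qc, whose lowest was then replicate 2. The largest difference within a pair was then 0.055 for C1qa and 0.072 for C1qc, above their spans, and 0.042 for C1qb, below its span. C1qb kept replicate 2 highest and replicate 3 lowest under both rescalings. Of the 447 bright probe sets, 5.59% had a wider range over the 6 arrays than C1qb, 29.5% than C1qa and 67.6% than C1qc.

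Exact ties were frequent among bright probe sets too. Of the 447, 40.3% were tied in pair 1, 38.0% in pair 2 and 35.8% in pair 3, and 5.37% in all 3 pairs. Over all tested probe sets it was 62.3%, 54.7% and 56.0%, and 27.8% in all 3. C1qa was tied in 0 pairs, C1qc in 1 and C1qb in 2.

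Since same-numbered arrays deviate together, fits that take the number into account give narrower intervals. In the fit blocked on replicate number the 95% interval of C1qa lay between -0.094 and 0.14, that of C1qb between -0.065 and 0.036 and that of C1qc between -0.047 and 0.080. These bounds correspond to 0.937-fold to 1.10-fold, 0.956-fold to 1.025-fold and 0.968-fold to 1.06-fold. Limma adjusted p-values with the block were 0.849, 0.674 and 0.722, and the block put 0 of 23410 probe sets past the threshold, with 541, or 2.31%, and none of the C1q genes, at an unadjusted p under 0.05. With the number as a random block 47 probe sets passed, or 0.201%, and 9.65% had an unadjusted p under 0.05. The C1q genes were in neither group, with adjusted p-values of 0.939 for C1qa, 1 for C1qb and 0.935 for C1qc. The random block used a correlation of 0.956 between same-numbered arrays, estimated over all tested probe sets with ties included. Either block treats ties as measured zeros. The narrow intervals of C1qb and C1qc, and the calls under the random block, thus rest in part on exactly equal deposited values.

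**Figure D3:**
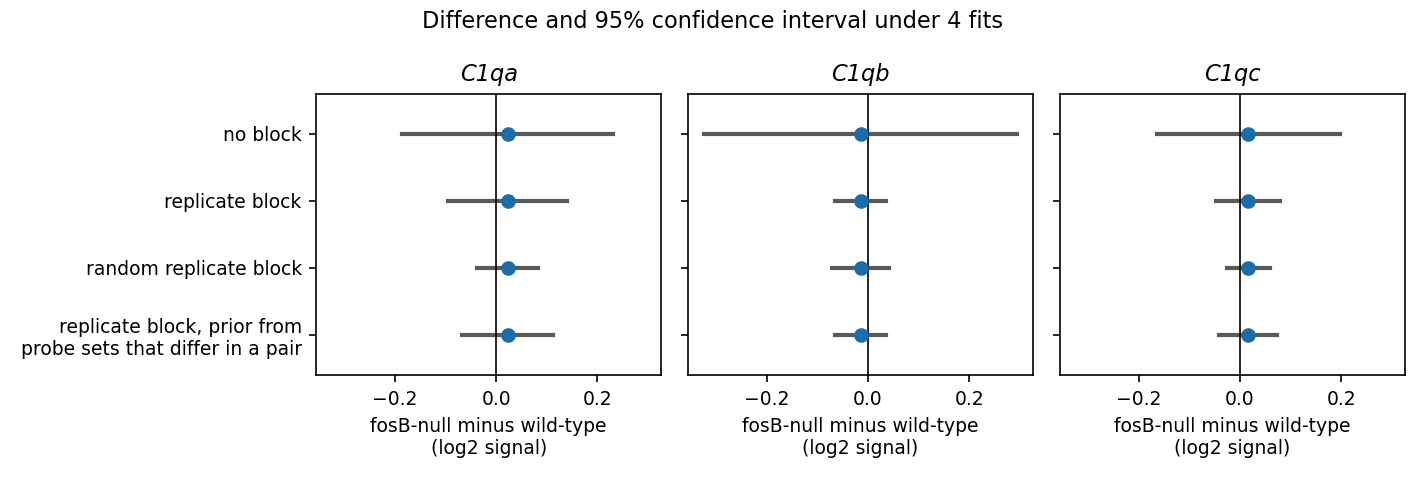
Difference between fosB-null and wild-type arrays (log2 signal, horizontal axis) with its 95% confidence interval for each C1q gene under 4 limma fits, listed on the vertical axis. Every interval includes 0, and the intervals without a block, up to -0.32 to 0.30 for C1qb, are wider than those with the replicate number.

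The enzymes, substrates and inhibitor of the classical and lectin pathways were mostly dim, and none passed the adjusted threshold. Of 11 listed genes 9 were measured, 2 with a higher and 3 with a lower mean in fosB-null arrays and 4 tied in all pairs. Their median difference was 0, as over all tested probe sets, and with median centring or quantile normalization 1 was higher and 8 lower. Under these rescalings most tested probe sets were lower too, 19672 and 16842 of 23410. The 4 ties were Serping1, the C1 inhibitor, C4b, a substrate of C1s, Masp2, a protease of the lectin pathway, and C1s2, a gene related to that of the protease C1s. Each of the 4 means was at most 7.16. C1s1, which encodes the protease C1s, was tied in 2 pairs and differed by -0.24 in pair 3, at a mean of 4.82. C4a was likewise tied in 2 pairs and differed by 0.035 in pair 3, and Masp1 differed by -0.080 in pair 2 alone. C4a and C4b are close copies, so their signals may be shared.

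C2 and C1ra were the members of that list with the largest differences. C2, the protease precursor cleaved by C1s, had 8.36, 8.40 and 8.05 in fosB-null replicates 1, 2 and 3, against 9.15, 9.09 and 8.31 in the wild-type ones. The groups overlapped, although C2 was lower in the fosB-null array of each pair, with differences of -0.79, -0.70 and -0.26. The difference of -0.58 had a standard error of 0.23, and limma gave an adjusted p of 1 (0.0422 unadjusted). Of all tested probe sets 0.722% had an unadjusted p under 0.05, and of this list 1 of 9. C1ra, which encodes the protease C1r, had 6.74, 6.91 and 7.07 in fosB-null replicates 1, 2 and 3, against 6.72, 6.50 and 6.97 in the wild-type ones. Its difference of 0.18 (limma adjusted p = 1) came mostly from pair 2, at 0.41.

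Genes listed here as C1q binding partners and receptors, or related to them, were measured in full, 12 of 12, and 0 passed the adjusted threshold. The means were above wild-type in 11 and below in 1 as deposited, 5 and 7 with median centring and 8 and 4 with quantile normalization, so the split depends on the scaling. Calr, the chaperone calreticulin, which binds the C1q stalk at the cell surface, was the only member whose groups did not overlap. It had 13.04, 13.11 and 13.03 in fosB-null replicates 1, 2 and 3, against 12.94, 12.93 and 12.95 in the wild-type ones. Its difference was 0.11 with a limma adjusted p of 1, and 1 of 12 is to be read beside the 1.12% over all tested probe sets. Itgam and Itgb2, the chains of complement receptor 3, differed by 0.092 and 0.039. Lrp1, an endocytic receptor that works with calreticulin, differed by 0.037. Cd93, once described as a C1q receptor, C1qbp, a mitochondrial protein that binds the globular heads, and the inhibitory receptor gene Lair1 differed by 0.0080, 0.0053 and 0.0072. The scavenger receptor genes Scarf1 and Megf10 differed by 0.0010 and 0.0052. The complement receptor gene Cr2, the related gene Cr1l and the integrin gene Itga2 differed by 0.017, -0.054 and 0.033.

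**Figure D4:**
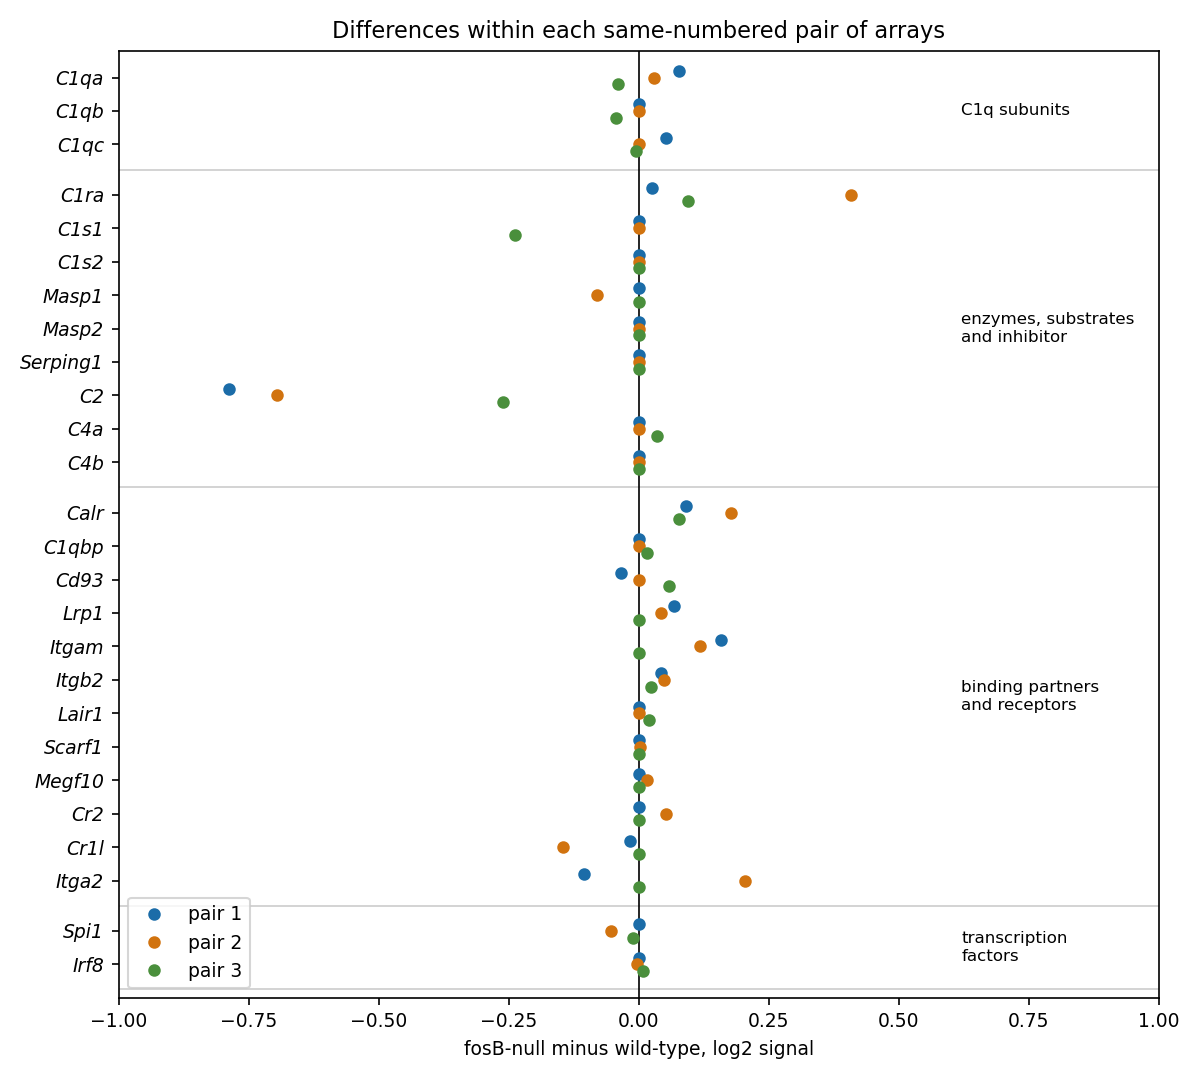
Difference between the fosB-null and the wild-type array of each same-numbered pair (log2 signal, horizontal axis) for every measured gene of 4 lists, with 1 point per pair. The C1q points lie between -0.044 and 0.078, the C2 points between -0.79 and -0.26, and points on the zero line are exact ties or differences too small to see.

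Of 3 listed transcription factors reported to act on C1q genes 2 were measured, Spi1 and Irf8. Spi1, which encodes PU.1, had 13.29, 13.32 and 13.13 in fosB-null replicates 1, 2 and 3, against 13.29, 13.37 and 13.14 in the wild-type ones, a difference of -0.022. Irf8 had 12.03, 12.12 and 11.95 in fosB-null replicates 1, 2 and 3, against 12.03, 12.12 and 11.94 in the wild-type ones, a difference of 0.0021 as deposited that turns negative with median centring. Both had limma adjusted p-values of 1, and like the C1q genes both were lowest in replicate 3 of each group. That is common on these arrays: replicate 3 had the lowest pair mean in 91.1% of the 447 bright probe sets and 46.1% of all tested ones.

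Other genes whose proteins carry a C1q domain were mostly near the dim end. Of 27 listed genes 26 were measured, 23 of them with a mean under 8, and 14 were tied in all 3 pairs, 8 higher and 4 lower in fosB-null arrays. The split was 2 higher and 24 lower with median centring, and 3 and 23 with quantile normalization. Over all 23410 tested probe sets it was 3738 higher and 19672 lower with median centring, and 6566 and 16842 with quantile normalization. Both rescalings thus moved most probe sets below 0, and the split of this list is to be read beside that. As deposited, the differences ran from -0.049 for C1qtnf12 to 0.057 for Col10a1, a network collagen gene, and 0 passed the adjusted threshold. Those with the lowest unadjusted p were C1qtnf12, Col10a1, Cbln1, a cerebellin gene, and Emilin2, an elastin-associated glycoprotein gene, the last 2 with differences of 0.020 and -0.033.

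Border macrophages and other myeloid cells can also carry C1q, and their markers were compared beside it. Of 7 border macrophage markers 5 had a higher mean in fosB-null arrays and 2 were tied in all pairs, with 0 past the threshold. With median centring 4 were higher and 3 lower. The log2 of their summed signal ran from 14.3 to 14.5 in fosB-null and from 14.2 to 14.4 in wild-type arrays. The brightest were Ms4a7, Clec12a, Pf4 and Mrc1, with differences of 0.0099, 0.039, 0.13 and 0.27. Mrc1, the mannose receptor gene, had 11.26, 11.61 and 11.10 in fosB-null replicates 1, 2 and 3, against 10.97, 11.06 and 11.13 in the wild-type ones (limma adjusted p = 1). Siglec1 had a mean of 10.90 and was higher in the fosB-null array of each pair, by 0.11, 0.22 and 0.11. The 2 tied in all pairs were Lyve1 and Cd163, at means of 6.91 and 6.58. Siglec1, Lyve1 and Cd163 were named after their values were seen. Of 10 dendritic cell and blood leukocyte markers 8 were measured, 7 with a mean under 8 and none past the threshold, with log2 summed signals of 10.6 to 11.2 in fosB-null and 10.7 to 10.9 in wild-type arrays. The exception was Itgax, at 10.13, 10.45 and 9.48 in fosB-null replicates 1, 2 and 3 against 9.70, 9.97 and 10.05 in the wild-type ones. Of 14 measured microglia and macrophage markers 9 were higher, 4 lower and 1 tied, as deposited, and 7 higher and 7 lower with median centring, with log2 summed signals of 16.2 to 16.3 in fosB-null and 16.1 to 16.3 in wild-type arrays. The part of these and the oligodendrocyte and fibroblast markers in the C1q values was not tested.

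Proliferation genes had higher means in fosB-null arrays without passing the adjusted threshold. Of 10 listed genes 9 were measured, namely Mki67, Top2a, Ccnb2, Bub1, Cdk1, Aurkb, Nusap1, Mcm2 and Mcm5, which serve DNA replication and mitosis. All 9 were higher as deposited and under both rescalings, with deposited differences from 0.24 for Mcm2 to 0.90 for Mki67. In 3 of the 9 the groups did not overlap, against 1.12% of all tested probe sets, and 3 of the 9 had an unadjusted p under 0.05, against 0.722%. Their median difference was 0.97 in pair 1, 1.13 in pair 2 and 0.018 in pair 3. The log2 of their summed signal ran from 13.16 to 13.88 in fosB-null and from 12.37 to 13.15 in wild-type arrays. In the same pairs the C1q median was 0.053, 0 and -0.039. The part of cell division in the C1q values was not tested.

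Genes next to the C1q cluster were compared in the same way. Predicted genes, olfactory and vomeronasal receptor genes and small non-coding RNA genes were passed over. The 5 nearest other measured genes on each side were Lactbl1, Tex46, Kdm1a, Luzp1 and Htr1d beyond C1qb, and Epha8, Zbtb40, Wnt4, Cdc42 and Cela3a beyond C1qa. Their differences ran from -0.021 for Epha8, an ephrin receptor gene, to 0.053 for Htr1d, a serotonin receptor gene, and all had a limma adjusted p of 1. Kdm1a, a histone demethylase gene, and Lactbl1 were tied in all 3 pairs. Cdc42, a small GTPase gene and the only neighbour above a mean of 13, had 13.25 ± 0.08 in fosB-null and 13.26 ± 0.13 in wild-type arrays (SD, n = 3 each).

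The genes most like C1q over the 6 arrays were sought by the root mean square difference from the mean of the 3 C1q genes, each gene centred on its own mean. Candidates were 2925 single-gene probe sets with no tie in any pair and a range of at least 50% of the C1q mean's 0.25. The gene classes passed over among the neighbours were passed over here too. C1qb and C1qc, with ties in 2 and 1 pairs, would not meet this rule themselves. Of the 447 bright probe sets 27.7% were tied in no pair, so the ranking leaves out most of them. The 6 nearest were Ppp1cc, a protein phosphatase catalytic subunit gene, at 0.013, Atxn2l at 0.014, Rpl13, a ribosomal protein gene, at 0.016, Ehmt2, a histone methyltransferase gene, at 0.018, and Ipo7, a nuclear import receptor gene, and Cypt12 at 0.019 each. The median over candidates was 0.097. Against the mean they help to form, C1qa lay at 0.019, C1qc at 0.044 and C1qb at 0.060. Ppp1cc had 12.43, 12.52 and 12.27 in fosB-null replicates 1, 2 and 3, against 12.39, 12.51 and 12.26 in the wild-type ones, again with replicate 2 highest and replicate 3 lowest.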

How the data were processed

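RNA of 6 samples of cultured microglia was hybridised to 1-colour Affymetrix arrays. The deposited values are log2 signals, 1 per probe set and array, deposited by the authors; the submitters' processing notes name Affymetrix Expression Console. No source used here gives its version, summary method or normalization. That the unit is log2 follows from the range of the deposited values, 1.73 to 14.6. The table held 35557 probe sets. The platform annotation gave 1 symbol to 21789 of them, and symbols were updated by gene number through RefSeq (21698 matched). That table served only for names and gene order.

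The members and lists were chosen with earlier results of these data known. The fosB-null and wild-type arrays entered a two-sided, unblocked and unfiltered fit (limma 3.58.1, R 4.3.3, moderated with eBayes) on the 23410 probe sets with a symbol, with Benjamini-Hochberg adjustment and a threshold of 0.05. The fit was tested on simulated data, which held no exact ties within pairs and so cannot show how such ties act on it. Differences are fosB-null minus wild-type. The number of arrays limits the precision. A gene of several probe sets was represented by the brightest.

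Arrays that share a number were taken as paired in the pair differences, pair means and fits with the replicate number, and not in the unblocked fit. They were paired there because each such pair's departures from its group mean correlated (0.62, 0.56 and 0.58). The pairing rests on these values and not on the labels. Exactly equal deposited values in the same pairs enter these correlations, so the correlations do not show that cultures were paired. Named are the members, lists of up to 12 genes in full and otherwise the 4 lowest p, and the 4 brightest markers of microglia. Named too are 5 neighbours per side, the 6 most alike genes and any gene past the threshold. Fosb and C5ar1 were added as the targeted gene and the pair of C5ar2. The other measured markers of microglia and of border macrophages were added to give those lists in full. The rule also gives the 4 brightest markers of each other cell type, which are named only where they stand beside a C1q result. Alternatives tried were median centring, quantile normalization, leaving out the dimmest 40%, other tested sets, an intensity trend, robust eBayes, fits with the replicate number, and leaving out arrays.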

Additional observations from a re-analysis of the deposited data

How the results depend on the processing

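The C1q genes passed the threshold in none of the 19 alternatives, with unadjusted limma p-values of at least 0.332 for C1qa, 0.376 for C1qb and 0.389 for C1qc. The differences are close enough to 0 for their sign to depend on the setting. With median centring the difference was -0.0011 for C1qa, -0.0078 for C1qc and -0.039 for C1qb. The sign of C1qa also turned without fosB-null replicate 1 or 2, without wild-type replicate 3 or without both arrays of replicate 1 (-0.0048). The sign of C1qc turned in the same cases (-0.0023 without both arrays of replicate 1), and that of C1qb without fosB-null replicate 3 or wild-type replicate 2. With single arrays or both arrays of a number left out it ranged from -0.022 to 0.091 for C1qa, from -0.11 to 0.084 for C1qb and from -0.020 to 0.063 for C1qc. Without both arrays of replicate 3 C1qb differed by 0, since its other pairs are tied. With the replicate block, which pairs same-numbered arrays, the differences were 0.023, -0.015 and 0.016 for C1qa, C1qb and C1qc, as without it, and it changed no call among them. The count over all 23410 probe sets was 1, and became 0 with the replicate block, also when its prior was taken from untied probe sets only, and 47 with the random replicate block. It was 0 without both arrays of replicate 1, 2 or 3, and 1 to 2 with single arrays left out. The 2, found without wild-type replicate 3, were C5ar2 and a probe set given to both Gm44805 and Apoc2. The other settings gave 1. Exact ties within pairs limit what these arrays can show about small C1q differences.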
